A study of Mus musculus with 5 samples.

Results

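The genes of the mitochondrial ribosome (mitoribosome) were followed in sorted mouse haematopoietic stem and progenitor cells (HSPCs). Members were taken by name, as every gene of the deposited table whose symbol begins with Mrpl or Mrps followed by a number. Of the 11352 listed genes, 76 met this rule. The family and the rule were chosen with earlier results of these data known. There were 3 RNA-seq libraries from mice that combined the Cux1 knockdown with NrasG12D (Cux1-low;NrasG12D, shortened to NrasG12D libraries) and 2 from mice that had the knockdown alone (Cux1-low). CUX1 is a DNA-binding protein with homeodomain and cut repeats, and NrasG12D encodes a RAS protein locked in its active form. All 5 libraries thus came from mice with the Cux1 knockdown, and all the mice had been given pI:C, an RNA mimic that triggers interferon, and doxycycline for 4 weeks. The comparison shows what accompanies the NrasG12D allele in cells with low Cux1. Which promoter drove the knockdown or opened the Nras allele, the age of the mice, and whether each library came from 1 animal are not stated in the labels. The p-values therefore measure only the spread between these libraries, part of which may be technical.

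Mitoribosomes translate the few proteins that the mitochondrial genome still encodes, all of them subunits of the respiratory chain and ATP synthase. Their RNAs come from mitochondrial DNA, but every one of their proteins is encoded in the nucleus, made in the cytosol and imported. Genes named Mrpl mostly encode proteins of the large subunit, which joins amino acids, and genes named Mrps mostly encode proteins of the small subunit, which reads the mRNA. Some of the proteins descend from the bacterial ribosome, and others exist only in mitochondria. Haematopoietic stem cells are known to rely little on respiration while quiescent and to raise mitochondrial activity as they divide and differentiate.

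Levels are given as normalized CPM, the values that the authors headed CPM, whose column sums show that library sizes had been adjusted. Reads over the listed genes numbered 16489711 in NrasG12D library 3, the shallowest, and up to 20262498 in the others. That library also stood apart from the other NrasG12D libraries. The first principal component of all genes placed it at -4.16, between NrasG12D libraries 1 and 2 (29.1 and 38.0) and the Cux1-low libraries (-32.8 and -30.1). Results are therefore also given without it. The mRNA of Cux1 measured 311, 279 and 307 normalized CPM in NrasG12D libraries, against 306 and 281 in Cux1-low libraries, and that of Nras 126, 124 and 113 against 144 and 115. The groups overlapped for both. Of the genes for the sort (lineage-negative, KIT-positive, SCA1-positive, CD135-negative), Kit was at 477, 569 and 816 in the NrasG12D libraries and at 1359 and 1373 in the Cux1-low libraries. Ly6a, which encodes SCA1, was at 24.2, 14.2 and 37.7 against 44.7 and 48.7. Flt3, which encodes CD135, was detected in all libraries, at 196, 165 and 230 against 326 and 388. None of the 5 T cell markers looked for was among the listed genes.

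The upstream sequences of 4 mitoribosomal genes are shown first, because the family shares a direction but no chromosome region, and its members lie on 17 chromosomes. RefSeq promoter windows (GRCm38.p6, 250 bases before to 50 after the start) were matched for 67 of the 76 genes. The windows were searched on both strands for the letters of 7 motifs. These were GCGCA, any base and GCGC for nuclear respiratory factor 1 (NRF1), a regulator of nuclear genes for mitochondria, CCGGAAG for ETS factors such as GABP, and AAGATGGC for YY1. The E-box (CACGTG) was also searched. So was CCAAT, bound by NF-Y. The GC box, bound by SP1, was searched as GGGCGG. The TATA box was searched as TATAAA. The 4 lines give the 250 bases before the start, 5′ to 3′ on the gene's strand, with any NRF1, ETS or YY1 letters in capitals. Among genes with a single window, Mrpl12 had the largest fold change with NRF1 letters in those 250 bases, Mrpl52 with ETS letters and Mrpl36 with YY1 letters, and Mrpl44 had the smallest fold change of the family.
Mrpl12: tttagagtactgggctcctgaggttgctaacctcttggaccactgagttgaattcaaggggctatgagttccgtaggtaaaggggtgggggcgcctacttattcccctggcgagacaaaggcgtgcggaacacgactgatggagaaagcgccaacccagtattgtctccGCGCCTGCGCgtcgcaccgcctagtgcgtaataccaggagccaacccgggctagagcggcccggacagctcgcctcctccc
Mrpl52: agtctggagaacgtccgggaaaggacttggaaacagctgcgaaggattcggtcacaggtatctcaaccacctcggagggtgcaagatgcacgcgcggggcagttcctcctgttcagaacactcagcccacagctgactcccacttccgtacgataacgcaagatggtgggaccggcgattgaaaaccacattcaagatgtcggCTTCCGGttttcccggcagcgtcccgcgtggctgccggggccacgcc
Mrpl36: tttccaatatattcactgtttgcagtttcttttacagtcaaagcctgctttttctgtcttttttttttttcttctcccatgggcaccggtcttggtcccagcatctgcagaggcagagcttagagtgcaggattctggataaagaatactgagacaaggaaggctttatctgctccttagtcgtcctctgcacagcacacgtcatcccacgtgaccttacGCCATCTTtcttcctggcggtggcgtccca
Mrpl44: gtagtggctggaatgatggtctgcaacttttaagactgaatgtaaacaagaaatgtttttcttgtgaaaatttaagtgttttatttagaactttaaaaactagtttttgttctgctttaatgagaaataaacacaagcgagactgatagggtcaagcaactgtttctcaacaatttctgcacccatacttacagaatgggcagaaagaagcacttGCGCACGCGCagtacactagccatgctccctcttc

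These stretches lie at chr11:120484387-120484636 (Mrpl12), chr14:54426659-54426908 (Mrpl52), chr13:73330759-73331008 (Mrpl36) and chr1:79775768-79776017 (Mrpl44), all on the plus strand. The NRF1 letters begin 81 bases before the start in Mrpl12, where they read on the minus strand, and 35 before it in Mrpl44, where they read on the plus strand. The ETS letters, on the minus strand, begin 47 bases before the start in Mrpl52, and the YY1 letters, also on the minus strand, 30 before it in Mrpl36. Over the 300-base windows, ETS letters were found in 25 of 67 mitoribosomal genes (37.3%) against 21.6% of the 8992 listed genes with a window. YY1 letters were found in 12 (17.9%) against 5.66%, and NRF1 letters in 13 (19.4%) against 12.4%. Letters of at least 1 of the 3 were in 42 of the 67 (62.7%), against 34.6% of all listed genes with a window. The GC box was in 33 (49.3%) against 69.8%, CCAAT in 27 (40.3%) against 43.2%, the E-box in 5 (7.46%) against 12.1%, and the TATA box in 5 (7.46%) against 8.02%. A match gives letters in a window and not a bound site. The median log2 fold change of genes with and without the letters was 0.34 and 0.37 for NRF1, 0.36 and 0.37 for ETS, and 0.37 and 0.36 for YY1.

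Across the family, every one of the 76 genes had a higher fitted level in the NrasG12D libraries than in the Cux1-low libraries, while 49.7% of all genes tested had a positive sign. The log2 fold change had a median of 0.36, a range of 0.00 to 0.73 and an SD of 0.15 over the genes, against a median of -0.00 and an SD of 0.50 over all genes. For 67 of the 76 genes (88.2%), every NrasG12D library lay above every Cux1-low library, which held for 26.5% of all genes. No member lay below in that way, which 27.0% of all genes did, and 9 overlapped. Summed over the family, normalized CPM reached 6841, 6570 and 5554 in the NrasG12D libraries, against 4716 and 4986 in the Cux1-low libraries. The means were 6322 ± 678 (SD, n = 3) and 4851 ± 191 (SD, n = 2), a ratio of 1.30. NrasG12D library 3 had the lowest of the NrasG12D sums and was still above both Cux1-low sums. It was the lowest of the NrasG12D libraries for 70 of the 76 genes (92.1%), against 39.0% of all genes.

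No single member passed the test over all genes. By limma with a trended variance on log2(normalized CPM + 1), with Benjamini-Hochberg adjustment, 0 of the 76 genes had an adjusted p under 0.05, where 0.255% of all 11352 genes passed upward and 0.872% downward. The smallest adjusted p was 0.0508, for Mrpl34. At an unadjusted p under 0.05, 44 genes (57.9%) were higher, against 14.8% of all genes. In the authors' deposited table, 21 of the 76 genes (27.6%) were higher and 0 lower at an adjusted p under 0.05, against 6.97% of all genes higher there and 9.14% lower. Without NrasG12D library 3, 53 genes (69.7%) rose in limma and 0 fell, in a fit in which 18% of all genes (2043 of 11352) rose and 19.4% fell. Leaving out any other library left 0 members past the threshold.

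**Figure D1:**
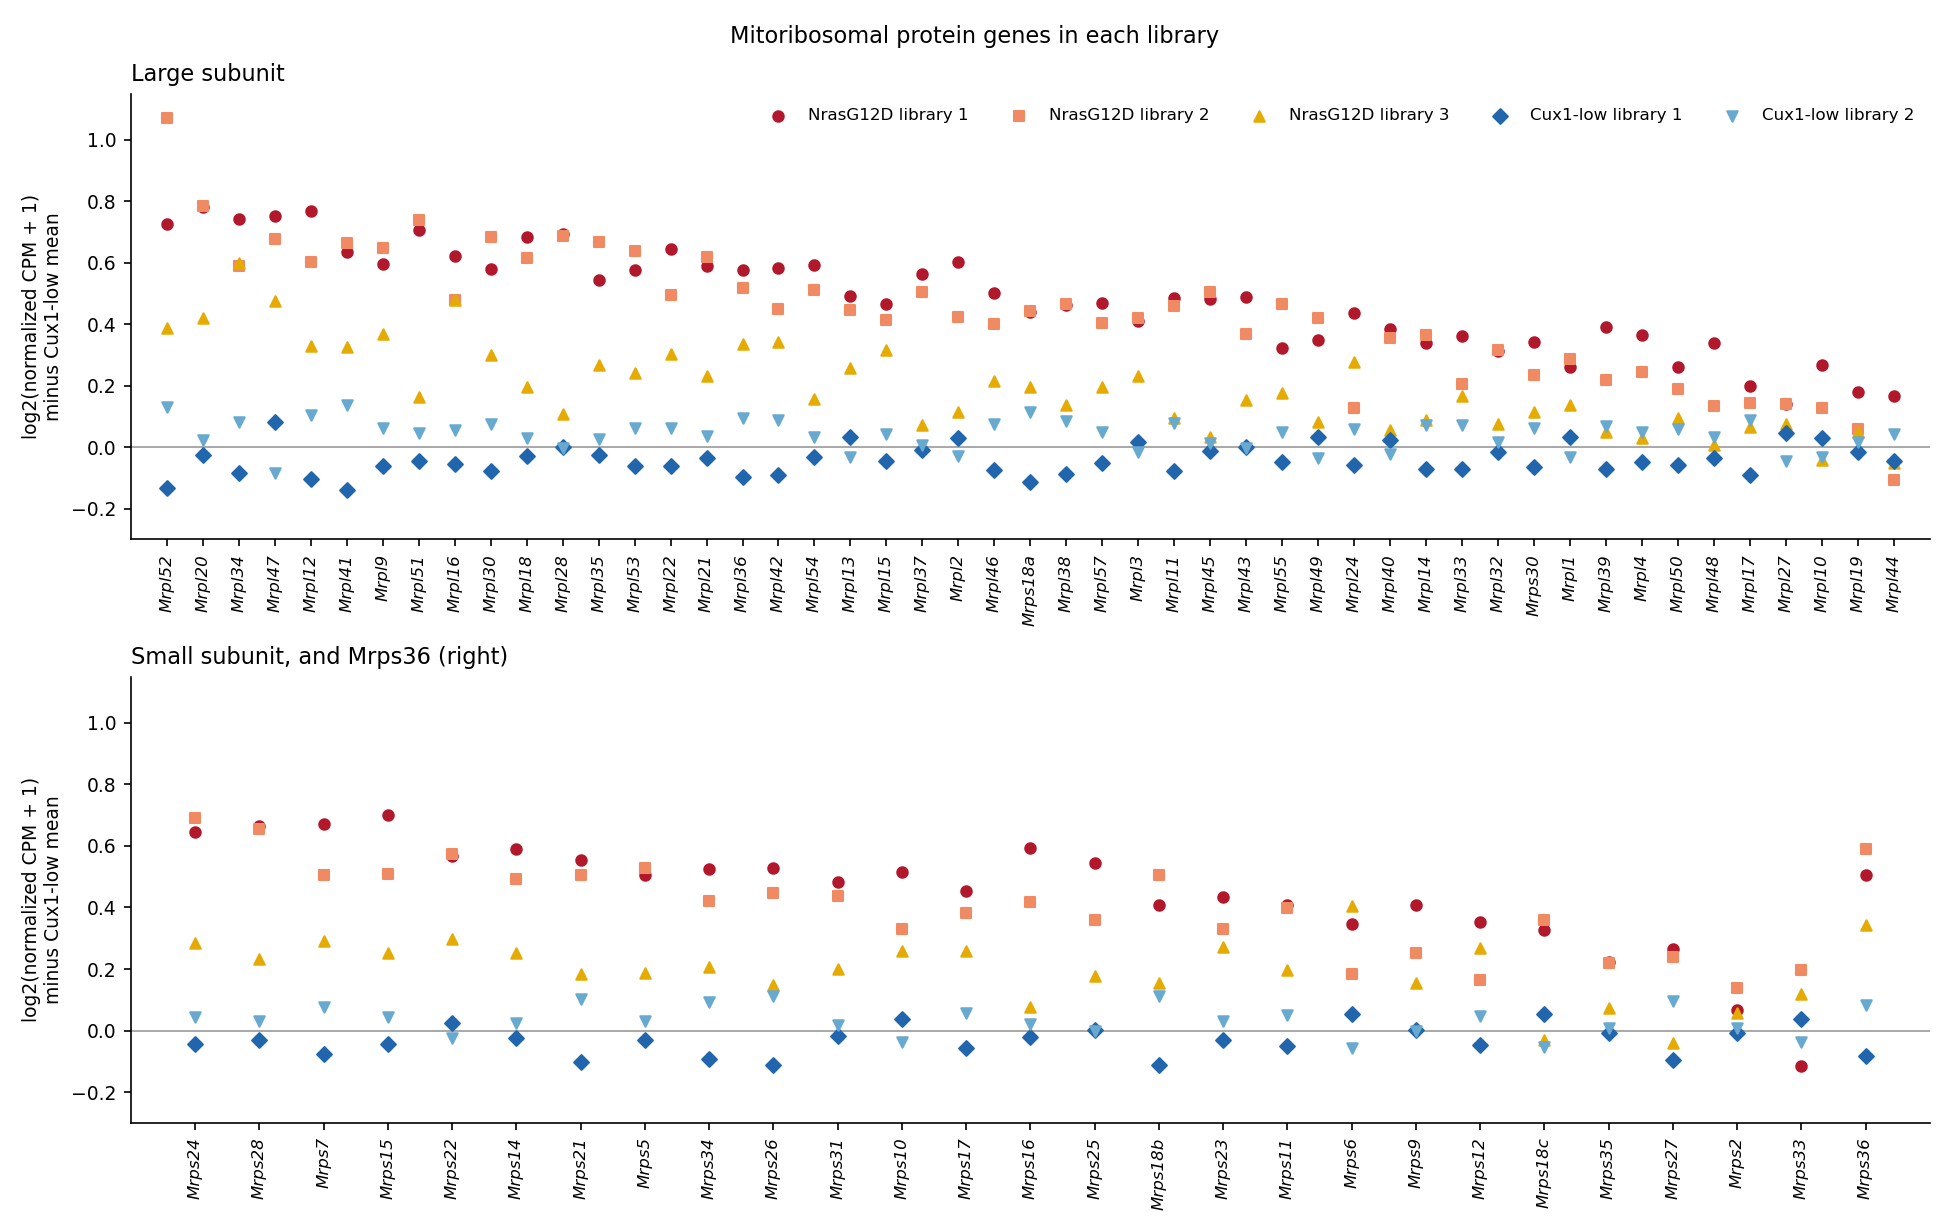
Level of each mitoribosomal gene in each library, as log2(normalized CPM + 1) minus the mean of the Cux1-low libraries; each point is 1 gene in 1 library, with genes of the large subunit above and of the small subunit below, ordered by fold change, and Mrps36 at the right. NrasG12D libraries 1 and 2 (red circles, orange squares) lie above both Cux1-low libraries (blue) for 74 of the 76 genes, and NrasG12D library 3 (yellow triangles) is the lowest of the NrasG12D libraries for 70.

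Of the 8 largest fold changes, all but that of Mrps24 were in genes of the large subunit. Mrpl52, a protein found only in mitochondrial ribosomes, was at 79.2, 101 and 62.5 normalized CPM in the NrasG12D libraries and at 43.3 and 52.1 in the Cux1-low libraries. Its groups did not overlap (log2 fold change 0.73, SE 0.21, limma adjusted p = 0.0872). Mrpl20, the counterpart of a bacterial protein that binds ribosomal RNA early in assembly, was at 125, 125 and 97.2 against 71.1 and 73.5 (log2 fold change 0.66, SE 0.14, limma adjusted p = 0.0632). Mrpl34 differed from most of the family in that NrasG12D library 3 lay beside the other NrasG12D libraries. It was at 134, 121 and 122 against 75.4 and 84.7 (log2 fold change 0.64, SE 0.11). In the authors' deposited table Mrpl34 had the smallest adjusted p of the family (0.000456).

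Mrpl47, at the tunnel through which the new protein leaves, was at 38.7, 36.7 and 31.8 normalized CPM in the NrasG12D libraries and at 23.97 and 21.3 in the Cux1-low libraries (log2 fold change 0.63, SE 0.15). Mrpl41, which has been linked to p53 and apoptosis, was at 62.8, 64.0 and 50.4 against 36.3 and 44.2. Mrpl9, another protein of bacterial type, was at 87.4, 90.7 and 74.5 against 55.1 and 60.1. In all of these the groups did not overlap. Mrps24, of the small subunit, encodes the counterpart of a bacterial protein at the mRNA entry and was at 115, 118 and 89.2 against 70.8 and 75.3 (log2 fold change 0.54, SE 0.15, limma adjusted p = 0.0835). Exons of Mrpl47 share 10.23% and 13.94% of their bases with a pair of listed genes on the opposite strand, and those of Mrps24 15.42% with 1 on its own strand. The sources used here do not say whether reads were counted by strand, so reads there cannot be assigned with certainty. In all, 20 of the 76 genes share exon bases with another listed gene, 5 of them at least 20% of their length.

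The stalk of the large subunit recruits the translation factors, and its 5 genes had log2 fold changes between 0.12 and 0.57. Mrpl12, whose product also binds the mitochondrial RNA polymerase, was at 181, 162 and 134 normalized CPM in the NrasG12D libraries and at 98.6 and 114 in the Cux1-low libraries. Its groups did not overlap (log2 fold change 0.57, SE 0.15, limma adjusted p = 0.0815). Mrpl10, which anchors Mrpl12 copies on the ribosome, was at 128, 116 and 103 against 109 and 104. Its groups overlapped, with NrasG12D library 3 the lowest of the 5 (log2 fold change 0.12, SE 0.12, limma adjusted p = 0.532). The remaining stalk genes had log2 fold changes of 0.49 (Mrpl53), 0.42 (Mrpl54) and 0.35 (Mrpl11), with no overlap between the groups. Mrpl54 was at 96.3, 91.0 and 70.9 against 62.0 and 65.0, and Mrpl53 at 36.6, 38.3 and 28.8 against 23.2 and 25.3. Most exon bases of Mrpl53 (87.97%) are shared with Gm42688, an annotated gene on the same strand that is not listed. Mrpl11 was at 84.8, 83.3 and 64.5 against 57.1 and 63.7, so that NrasG12D library 3 lay just above the Cux1-low libraries.

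Some genes had fold changes near 0. Mrpl44, a protein with an RNase III-like fold that is needed to assemble the large subunit, was at 86.3, 71.3 and 74.1 normalized CPM in the NrasG12D libraries and at 74.5 and 79.2 in the Cux1-low libraries. The groups overlapped (log2 fold change 0.00, SE 0.12, limma adjusted p = 0.988). Its sign turned negative, though small, with libraries scaled to equal totals, with quantile normalization, and without NrasG12D library 1 or Cux1-low library 1. Mrps33 was at 6.56, 8.39 and 7.90 against 7.40 and 6.98 (log2 fold change 0.07). It rested on 128 to 151 reads per library, and its groups overlapped. Mrps2, a small-subunit protein of bacterial type, was at 97.2, 102 and 96.5 against 92.2 and 93.2, a narrow gap with no overlap (log2 fold change 0.09, SE 0.10).

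The other genes with small fold changes were 3 of bacterial type and 1 specific to mitochondria. Mrpl19, of bacterial type, was at 90.6, 83.2 and 82.6 normalized CPM in the NrasG12D libraries and at 78.9 and 80.8 in the Cux1-low libraries, and 36% of its exon length is shared with Gcfc2 on the opposite strand. Mrpl27, which reaches towards the catalytic centre, was at 31.4, 31.3 and 30.0 against 29.3 and 27.4. Mrpl17, at the exit tunnel, was at 126, 121 and 115 against 103 and 117, and its groups overlapped. Mrps27, the small-subunit protein specific to mitochondria, was at 70.7, 69.4 and 57.1 against 54.9 and 62.8, with NrasG12D library 3 between the Cux1-low values. These 4 genes had log2 fold changes of 0.10 (SE 0.11), 0.12 (SE 0.13), 0.14 (SE 0.11) and 0.15 (SE 0.14).

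Both subunits had close to the same fold change. Genes of the large subunit (49) had a median log2 fold change of 0.36, and genes of the small subunit (26) one of 0.36. Summed normalized CPM of the large subunit was 4717, 4551 and 3816 in the NrasG12D libraries against 3246 and 3434 in the Cux1-low libraries. For the small subunit it was 2119, 2015 and 1734 against 1467 and 1550. The large subunit's sum divided by the small subunit's was 2.23, 2.26 and 2.20 in the NrasG12D libraries and 2.21 and 2.22 in the Cux1-low libraries, so the ranges overlapped. Proteins of bacterial type had medians of 0.40 (large subunit, 29 genes) and 0.37 (small subunit, 16 genes). Proteins found only in mitochondria had medians of 0.36 (20 genes) and 0.36 (10 genes). In the authors' deposited table, where 6.97% of all genes were higher, 12 of the 29 large-subunit genes of bacterial type were higher and 3 of the 20 specific to mitochondria. In the small subunit these counts were 5 of 16 and 1 of 10, and the differences between the classes were not tested. By place in the large subunit, medians were 0.42 for the stalk (5 genes), 0.34 for the exit tunnel (5 genes) and 0.32 for the central protuberance (7 genes), which contacts the small subunit.

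**Figure D2:**
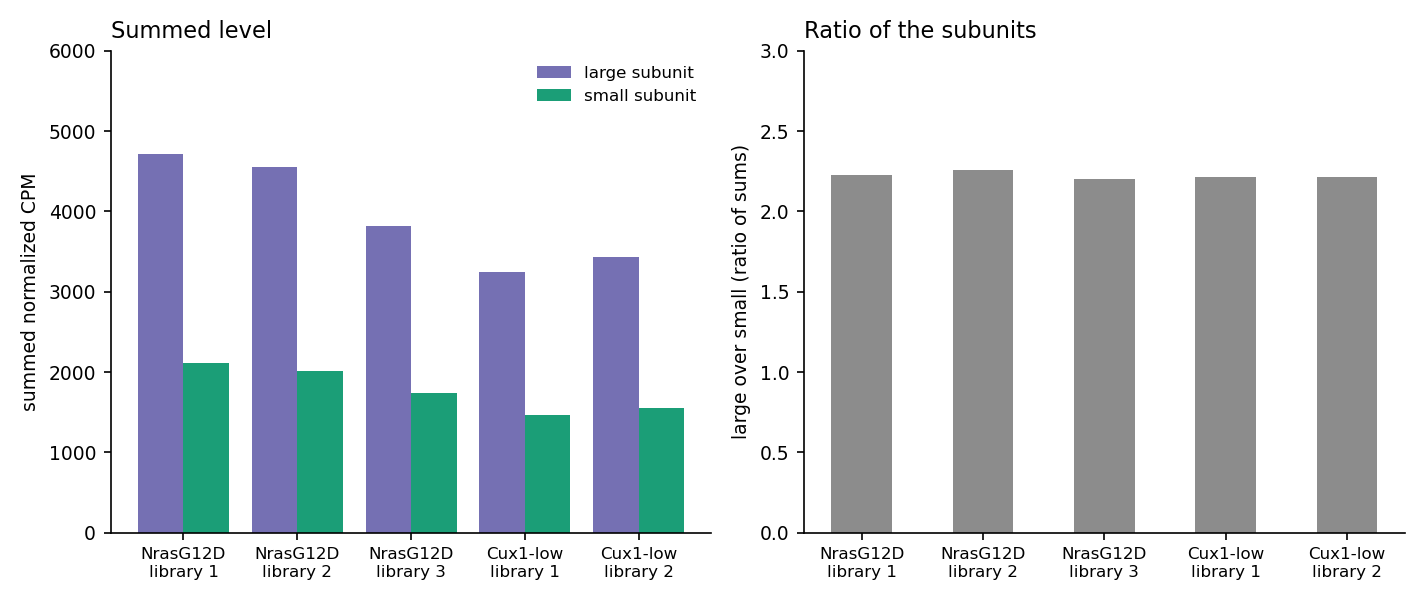
Summed normalized CPM of the genes of the large (purple) and small (green) mitoribosomal subunit in each library, and the ratio of the sums at right; each bar is 1 library. Both sums are highest in NrasG12D library 1 and lowest in Cux1-low library 1, while the ratio stays between 2.20 and 2.26.

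Some symbols do not match the place of the protein. Mrps30 and Mrps18a carry small-subunit names but encode proteins of the large subunit, and they were counted there. Mrps30 was at 135, 125 and 115 normalized CPM in the NrasG12D libraries and at 102 and 111 in the Cux1-low libraries (log2 fold change 0.23). The S18 family has Mrps18a in the large subunit and Mrps18b and Mrps18c in the small subunit. Mrps18a was at 97.0, 97.2 and 81.7 against 65.8 and 77.1, and Mrps18b at 46.7, 50.04 and 39.0 against 32.3 and 37.8, each with no overlap (log2 fold changes 0.36 and 0.36). Mrps18c was at 40.9, 41.9 and 31.7 against 33.7 and 31.2, so NrasG12D library 3 lay between the Cux1-low libraries (log2 fold change 0.22, limma adjusted p = 0.38). Mrps12, at the decoding centre of the small subunit, was at 74.6, 65.4 and 70.4 against 56.3 and 60.2 (log2 fold change 0.26). Mrps36 is now regarded as a subunit of the 2-oxoglutarate dehydrogenase complex. It had the lowest values of the family, at 4.41, 4.74 and 3.83 against 2.60 and 3.03, with 53 reads in Cux1-low library 1. Its groups did not overlap (log2 fold change 0.48, SE 0.21, limma adjusted p = 0.175).

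Levels per length differed widely between the genes. Per kilobase of annotated exon, and averaged over the 5 libraries, Mrpl34 was highest at 177 normalized CPM per kilobase, followed by Mrpl28 (138) and Mrps28 (115). Mrpl28, a large-subunit protein of bacterial type, was at 245, 244 and 163 normalized CPM in the NrasG12D libraries and at 151 and 151 in the Cux1-low libraries. Mrps28, the small-subunit protein known as bS1m, was at 113, 112 and 83.5 against 69.4 and 72.6. In both, NrasG12D library 3 lay far below the other NrasG12D libraries and above the Cux1-low libraries. The lowest levels per kilobase were those of Mrps36 (2.92), Mrpl48 (3.04) and Mrps33 (4.47). Mrpl48, of the central protuberance, was at 29.4, 25.3 and 23.1 against 22.5 and 23.6, and its groups overlapped. Exon length covers all annotated isoforms, which lowers the value of a gene with rare long ones. Annotated pseudogenes exist for Mrpl48 (1) and Mrps36 (3), so how reads divide among the copies is uncertain.

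Shorter genes had higher fold changes in these libraries as a whole, and the mitoribosomal genes are short, with a median exon length of 2214 bases against 4482 for all genes. The 743 listed genes of up to 1500 bases had a median log2 fold change of 0.25, and the 4911 over 5000 bases one of -0.08. Within each length class the mitoribosomal median was higher. It was 0.48 for the 20 genes of up to 1500 bases, 0.34 for 27 genes up to 3000 bases (all genes, 0.09), 0.45 for 15 genes up to 5000 bases (all genes, -0.00) and 0.31 for 14 longer genes. Across the 76 genes, Spearman's rho between fold change and exon length was -0.23, and across all 11294 genes with a length it was -0.21. These are descriptions across genes, which share the same 5 libraries.

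**Figure D3:**
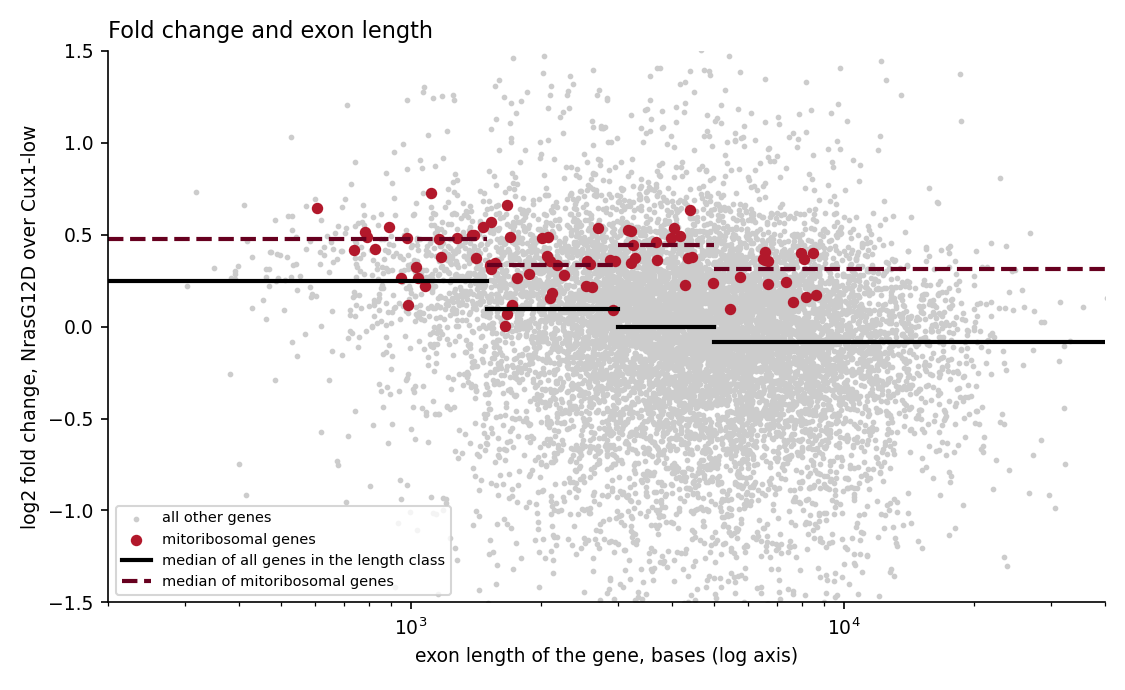
Log2 fold change (NrasG12D over Cux1-low, log2(normalized CPM + 1) scale) against exon length in bases on a log axis, with mitoribosomal genes in red and all other genes in grey; genes outside the axes are not drawn. Solid lines are medians of all genes in 4 length classes, which go down from 0.25 to -0.08, and dashed lines are medians of the mitoribosomal genes, which lie between 0.31 and 0.48.

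Beyond the Mrpl and Mrps symbols, 6 further proteins of the mitoribosome carry other names (Dap3, Ptcd3, Chchd1, Aurkaip1, Gadd45gip1 and Ict1). All 6 were higher in every NrasG12D library than in any Cux1-low library, as 26.5% of all genes were, with a median log2 fold change of 0.41. Dap3, a GTP-binding protein of the small subunit, was at 214, 220 and 164 normalized CPM in the NrasG12D libraries and at 142 and 146 in the Cux1-low libraries. Gadd45gip1, of the large subunit, was at 77.2, 108 and 66.9 against 48.1 and 56.3. None passed over all genes in limma, and 4 were higher at an unadjusted p under 0.05, as 14.8% of all genes were. Of the 6, 1 was higher in the authors' deposited table (6.97% of all genes), and all 6 rose without NrasG12D library 3 (18% of all genes).

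Genes that act on the mitoribosome, rather than form it, showed smaller values. Translation factors, counted broadly, numbered 15 and included Taco1, Oxa1l, Lrpprc and Slirp. Of these 15, 13 had a positive sign, with a median log2 fold change of 0.16. Every NrasG12D library lay above every Cux1-low library for 9 and below for 1, against 26.5% and 27.0% of all genes. Taco1, an activator of translation of a cytochrome oxidase subunit, was at 24.2, 24.7 and 24.2 normalized CPM in the NrasG12D libraries and at 14.5 and 17.8 in the Cux1-low libraries. Oxa1l, which inserts new proteins into the inner membrane, was at 98.9, 104 and 90.7 against 75.7 and 72.9. Of 26 factors that assemble the mitoribosome or modify its RNA, 19 had a positive sign, with a median of 0.12. Among them Noa1, a GTPase, was at 154, 147 and 156 against 104 and 126. Mterf4, which brings an RNA methyltransferase to the large subunit, was at 19.6, 23.7 and 22.8 against 34.2 and 54.3. All Mterf4 values in the NrasG12D libraries were below those in the Cux1-low libraries (log2 fold change -0.94, SE 0.21, limma adjusted p = 0.0705). Of 17 mitochondrial aminoacyl-tRNA synthetases, which charge tRNAs, 15 had a positive sign, with a median of 0.17. Lars2 was at 688, 775 and 747 against 571 and 507, and Sars2 at 78.5, 84.0 and 62.6 against 54.8 and 47.3.

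Genes for copying and transcribing mitochondrial DNA had fold changes on both sides of 0. Of 12, 5 had a positive sign, with a median log2 fold change of -0.04, and their summed normalized CPM was 616, 607 and 621 in the NrasG12D libraries against 593 and 620 in the Cux1-low libraries. Polg, the mitochondrial DNA polymerase, was at 122, 133 and 128 against 109 and 117, and the transcription factor gene Tfb2m at 8.67, 9.59 and 8.26 against 8.24 and 7.36. Of 10 regulators of nuclear genes for mitochondria, 6 had a positive sign (median 0.06). Gabpb1, a partner of the ETS factor GABPA, was at 118, 122 and 131 against 176 and 153. Mycn, a MYC family gene, was at 31.0, 29.2 and 75.3 against 121 and 112. Both lay below in every NrasG12D library (limma adjusted p = 0.0835 and 0.0792). In none of these 5 lists did a gene pass over all genes in limma. Without NrasG12D library 3, 5 of 15 translation factors, 4 of 26 assembly factors, 4 of 17 synthetases and 1 of 10 regulators rose, where 18% of all genes did. In that fit 2 of 26 assembly factors and 2 of 10 regulators fell, where 19.4% of all genes did, and 0 of 12 genes for mitochondrial DNA passed either way. Beside those shares, the counts other than that of the translation factors are near or below the background.

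Subunits of other large complexes had values close to those of the mitoribosomal genes. All 25 genes of mitochondrial protein import had a positive sign, with a median log2 fold change of 0.36, and 71 of 75 subunits of the respiratory chain and ATP synthase did (median 0.43). Hspe1, the mitochondrial co-chaperonin, was at 68.5, 60.1 and 53.6 normalized CPM in the NrasG12D libraries and at 35.0 and 37.3 in the Cux1-low libraries. Tomm40, the pore of the outer membrane, was at 346, 317 and 261 against 195 and 222. Ndufa12, a subunit of complex I, rose, at 61.8, 61.3 and 61.1 against 37.1 and 34.2 (log2 fold change 0.77, SE 0.11, limma adjusted p = 0.043). That call was lost without any 1 of NrasG12D libraries 1 and 2 and the Cux1-low libraries. The sign was also positive for 73 of 76 genes of the cytosolic ribosome (median 0.43). Rps3a1 rose, at 114, 123 and 110 against 50.4 and 46.8 (log2 fold change 1.23, SE 0.11, limma adjusted p = 0.0145), a call lost without NrasG12D library 1 or either Cux1-low library. Many genes of the cytosolic ribosome have pseudogene copies of close sequence, which makes their levels uncertain. Genes encoded by mitochondrial DNA were not analysed here.

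**Figure D4:**
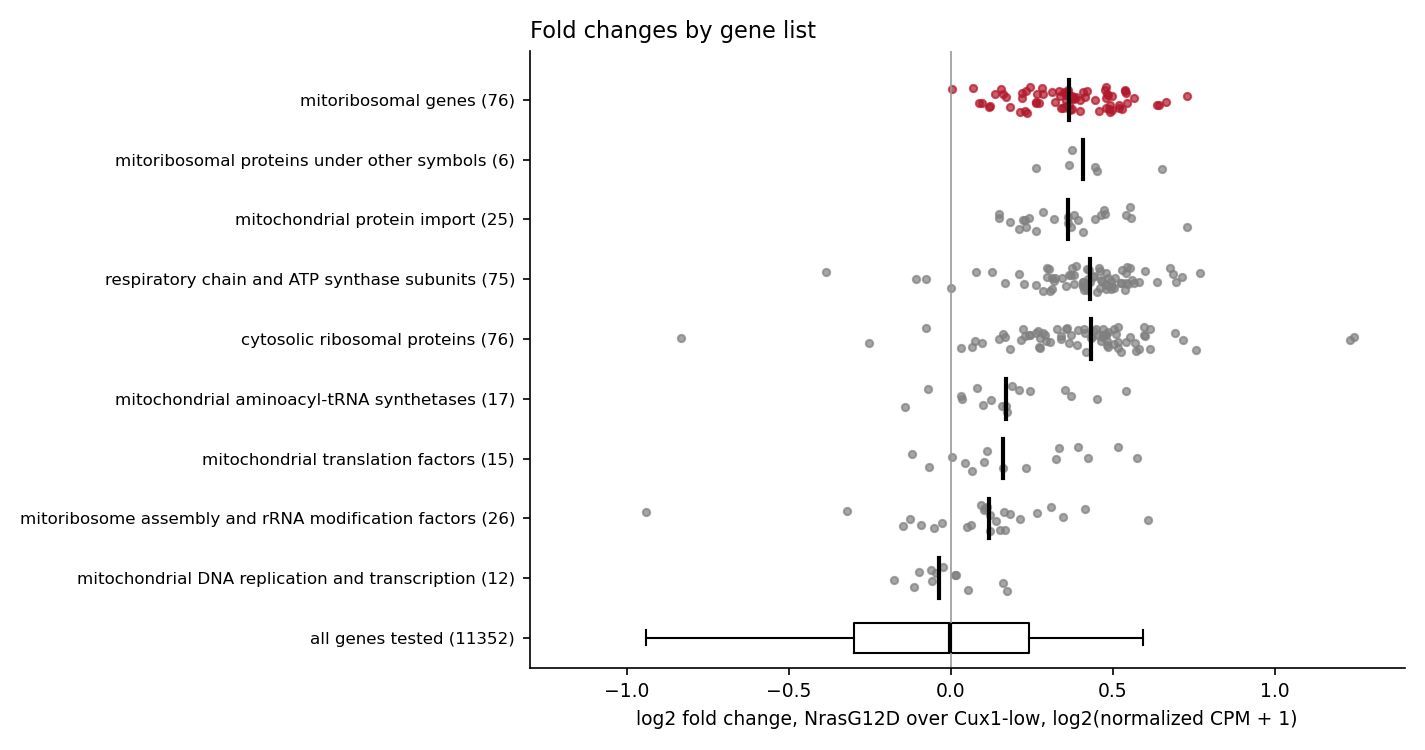
Log2 fold change (NrasG12D over Cux1-low, log2(normalized CPM + 1) scale) of each gene in 9 lists, with the number of genes in brackets; each point is 1 gene, black bars are medians, and the box for all genes shows the quartiles with whiskers at the 5th and 95th percentile. Mitoribosomal genes (red, median 0.36) all lie at or above 0, as the 25 import genes do, while genes for mitochondrial DNA centre on -0.04.

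Markers of proliferation and of other cell types also differed between the groups and between NrasG12D libraries. Relative to the Cux1-low mean, the median log2 difference of the mitoribosomal genes was 0.49, 0.43 and 0.19 in NrasG12D libraries 1, 2 and 3. For 28 cell cycle genes it was 0.66, 0.76 and 0.21, and all 28 had a positive sign. Mki67, a proliferation marker, was at 405, 527 and 359 normalized CPM in the NrasG12D libraries and at 259 and 247 in the Cux1-low libraries, and E2f1, a regulator of S phase entry, at 118, 116 and 105 against 77.9 and 65.5. All 9 measured erythroid markers of 13 had a positive sign, with sums of 7871, 10848 and 5619 normalized CPM against 4591 and 5028. The 4 adult globin genes of that list were not among the listed genes. Klf1, the erythroid transcription factor, was at 423, 533 and 270 against 166 and 209, and Blvrb, a haem-metabolism enzyme, at 324, 434 and 211 against 141 and 150.

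The precursor B cell markers (9 measured of 12) summed to 459, 830 and 139 normalized CPM in the NrasG12D libraries and to 174 and 245 in the Cux1-low libraries, so NrasG12D library 3 lay below both Cux1-low libraries. Among them Vpreb3 had values of 20.2, 48.0 and 2.31 against 0.931 and 1.64. Neutrophil and monocyte markers (7 of 10 measured) summed to 19584, 13084 and 8176 against 7541 and 10662. Mpo made up most of each sum, at 16346, 10968 and 6917 against 6253 and 8799. Within that list Ly6c2 was at 152, 128 and 57.7 against 41.4 and 57.4, while the myeloid integrin gene Itgam was at 17.9, 12.3 and 22.2 against 30.8 and 51.3. Megakaryocyte markers (6 of 6) summed to 642, 530 and 1090 against 1238 and 1276, with Vwf at 37.7, 42.2 and 38.2 against 83.0 and 59.8. Endothelial markers (4 of 5) summed to 128, 103 and 149 against 193 and 198, with Tek at 10.7, 10.5 and 30.9 against 43.6 and 48.5 and Emcn at 2.67, 3.08 and 9.23 against 15.6 and 13.5. The 6 genes of the stem and progenitor gate summed to 1620, 1397 and 2317 against 2955 and 3083. Kit and Cd34 made up most of that sum. Of the 6 genes, 4 lay below in every NrasG12D library, as 27.0% of all genes did. Cd48 went the other way, at 174, 142 and 212 against 138 and 125 with no overlap, and Slamf1 was at 11.2, 17.6 and 19.3 against 12.2 and 8.09, with overlap. In bulk RNA, fewer cells of a type and less RNA per cell cannot be told apart. The part of cell makeup, proliferation or RNA quality in the mitoribosomal values was not tested. In NrasG12D library 3 the precursor B sum lay below both Cux1-low sums, while the erythroid and the mitoribosomal sums lay above both.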

How the data were processed

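PolyA RNA of sorted HSPCs from 5 libraries in 2 groups was analysed. The deposited signal values are headed CPM per the file headers, but the columns sum to 971746 to 1026780, so the library sizes had been adjusted, and they are called normalized CPM. The deposited table also holds the authors' log2 fold change and mean log2 CPM, a likelihood ratio score, and p-values with adjusted p-values. Per the submitters' processing notes, the authors used TopHat, HTSeq and edgeR, and builds mm10 and hg19 are listed, none with a role. Each listed gene exceeds 1 in at least 3 libraries, so genes present only in the Cux1-low libraries are not among those tested.

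Every value is a whole multiple of 1 step per library (tolerance 0.01 of a step), the value of 1 read, which gave the depths. Since the deposited values are normalized, no count test was run. limma 3.58.1 (R 4.3.3) with a trended variance was fitted to log2(normalized CPM + 1) of all 11352 genes, without a block. The filter, at least 1 in 2 libraries, removed 0 genes. The threshold was an adjusted p of 0.05 (Benjamini-Hochberg). The fold change scale understates low genes. The fit was tested on simulated data.

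The members, lists, structural classes and rules were chosen with earlier results of these data known. Genes named with values are Cux1 and Nras, members past the threshold, the 8 largest and 8 smallest fold changes, the 3 highest and 3 lowest levels per length, the S18 and stalk genes, Mrps12, Mrpl41, Mrps30 and Mrps36. In each list they are those past the threshold or the 2 with the smallest p, of which some are not reported here. Mrpl36 and its promoter, Ly6a, Cd34, Cd48, Slamf1 and Mpo were named in addition, after their values were seen. Lists are described by counts and medians. Exon lengths and overlaps are from GENCODE M21 on mm10, matched for all 76 members. Python 3.11.15, numpy 2.4.6, pandas 2.3.3 and matplotlib 3.10.9 were used.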

Additional observations from a re-analysis of the deposited data

How the results depend on the processing

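The sign stayed positive for every member tested under each alternative except for Mrpl44 (75 members with a filter of 5, which removes Mrps36), at -0.060 with libraries scaled to equal totals, -0.015 with quantile normalization, and -0.078 to 0.058 with 1 library left out. The median over the family ranged from 0.30 with equal totals to 0.46 with a replicate block. With equal totals the median of all genes was -0.06. Leaving out 1 library gave a median of 0.31 to 0.46, 0 to 53 members higher, and 0 lower. Over all genes this gave 3 to 2043 higher and 0 to 2200 lower. The highest counts were those without NrasG12D library 3. Members with every NrasG12D library above every Cux1-low library (an alternative chosen after seeing the data) numbered 57 with equal totals. With 1 library left out they numbered 67 to 74. Removing a library cannot lower that count, so it does not show robustness, and the matching shares over all genes were not counted. With median-ratio scaling and with quantile normalization 1 member, Mrpl34, was called (limma adjusted p = 0.0499 and 0.0493). Over all genes, 182 were lower with equal totals, 63 with a pseudocount of 0.1, and 63 higher and 165 lower with quantile normalization. Cux1 turned to -0.039 with equal totals, -0.080 with quantile normalization and -0.037 to 0.087 with 1 library left out, and Nras lay at -0.25 to 0.069 with 1 left out. The replicate block gave 47 members higher, and 1892 genes higher and 2271 lower over all genes. Replicate number 3 has no partner, so the block takes NrasG12D library 3 out of the contrast. The numbers did not pair the libraries (correlations of deviations -0.19 and -0.004). Filters, pseudocounts, robust and untrended limma left 0 members called. The cause of these shifts was not tested. DESeq2 was not run, as the deposited values are normalized. The recovered reads served only to describe depth and reads per gene. Depth limits Mrps36 and Mrps33.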
